A study of Mus musculus with 3 samples.

Results

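The chromatin of 7 transcription factor genes of the stem cell heptad and its partners (Tal1, Lyl1, Lmo2, Fli1, Erg, Ldb1 and Etv6) was examined in LT-HSCs, the long-term stem cells of the blood, of old mice. The genes were chosen by name, and are 7 of 21728 protein-coding genes measured. For each of them, fragments of open chromatin were counted over the promoter, over open sites within 50 kb of the gene start, and over the gene body with 2 kb upstream. The cells, enriched for c-Kit from bone marrow and sorted as Lin-, Sca-1+ and c-Kit+ with CD150 but neither CD48 nor CD34, came from wild-type female mice aged 24 months, with no treatment or transgene given in the labels. They were profiled as 1 pool by DOGMA-seq, which gives open chromatin by ATAC, antibody tags and RNA for each cell, with 1 library for each and 3 in all. The study sought surface markers that separate platelet-biased (PLT) from multi-lineage (MUL) HSCs. RNA enters here only as the total per cell, so openness of a gene is not its expression.

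The heptad is a group of transcription factors that bind together at enhancers of blood stem and progenitor cells, including enhancers of the heptad genes themselves. Tal1 and Lyl1 are related basic helix-loop-helix proteins that pair with E proteins on the E-box CANNTG. Lmo2 is an adaptor that joins them to GATA factors on GATA sites, and Ldb1, recruited by Lmo2, dimerises and brings distant elements together. Fli1, Erg and Etv6 are ETS proteins that recognise GGAA, the first pair as activators and Etv6 as a repressor. Tal1, Lmo2, Ldb1 and Etv6 are each required for blood stem cells to form or persist, and several members also act in endothelium and megakaryocytes.

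The ATAC library held 43705382 fragments, and 3724 of 4369 barcodes called as cells had antibody counts. Requiring at least 10 antibody tags removed 95 cells and left 3629, with 38498362 nuclear fragments and a median of 10287 (3853 to 45069) per cell. Doublets were not taken out, and 264 cells (7.28%) had an excess of positions under at least 3 fragments over a Poisson expectation, as mixed cells can have. With 1 pool and 1 library per assay there was no replicate, cells are not replicates, and no test was run. All intervals are exact 95% intervals for counting error only. Gene body levels of B-cell markers (0 of 5 above the median of all genes) and T-cell markers (1 of 5, Lck) were low, while 7 of 8 HSC markers and 5 of 6 megakaryocyte markers lay above it. The HSC markers ranged from 0.781 to 6.59. A level is the number of fragments per kb of the interval, scaled to 1000000 nuclear fragments. Of the erythroid markers 2 of 6 (Klf1 and Epor), of the myeloid markers 3 of 6 and of the endothelial markers 5 of 6 were above that median. At promoters, 4 of 8 HSC, 4 of 6 megakaryocyte and 3 of 6 endothelial markers were above the median of all promoters. So were 1 of 6 erythroid, 1 of 5 B-cell, 0 of 6 myeloid and 0 of 5 T-cell markers.

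The following stretches of sequence are shown because they lie at the starts and open sites on which the results turn. RefSeq promoter sequences (GRCm38.p6, the same build as mm10) were matched for 5 of 7 genes, and none was printed for Lmo2 or Fli1. Each promoter run holds the 250 bases before a start, and each site run the 150 bases around the highest point of an open site. All are 5′ to 3′ on the strand of the gene. Capitals mark the E-box CANNTG, the letters GATA and the letters GGAA, read on both strands, and these may overlap each other. In order, they are the Tal1 promoter (chr4:115056176-115056425, plus strand), the Lyl1 promoter (chr8:84701207-84701456, plus strand), an Erg start 127 kb into the gene that was open (chr16:95459349-95459598, minus strand), an Erg start 56.2 kb into the gene that was closed (chr16:95530366-95530615, minus strand), the Tal1 -4 site (chr4:115052651-115052800), the Tal1 +40 site (chr4:115096001-115096150) and the most covered site of Erg, in an intron (chr16:95439301-95439450, minus strand).
Tal1 promoter: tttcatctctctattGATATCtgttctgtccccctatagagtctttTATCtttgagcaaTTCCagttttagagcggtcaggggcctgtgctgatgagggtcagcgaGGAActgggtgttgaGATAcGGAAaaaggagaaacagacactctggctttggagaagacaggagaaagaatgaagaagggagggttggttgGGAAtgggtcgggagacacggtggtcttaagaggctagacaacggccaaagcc
Lyl1 promoter: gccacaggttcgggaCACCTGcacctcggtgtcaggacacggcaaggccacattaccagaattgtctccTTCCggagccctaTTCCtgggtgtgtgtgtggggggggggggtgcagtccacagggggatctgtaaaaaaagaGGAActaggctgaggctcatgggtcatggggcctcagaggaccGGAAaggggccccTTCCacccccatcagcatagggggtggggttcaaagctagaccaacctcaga
Erg open start: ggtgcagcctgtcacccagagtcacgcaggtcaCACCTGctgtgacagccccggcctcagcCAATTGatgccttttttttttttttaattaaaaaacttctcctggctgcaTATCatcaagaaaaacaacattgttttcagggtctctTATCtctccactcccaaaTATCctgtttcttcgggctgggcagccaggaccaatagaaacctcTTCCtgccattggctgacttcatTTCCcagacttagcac
Erg closed start: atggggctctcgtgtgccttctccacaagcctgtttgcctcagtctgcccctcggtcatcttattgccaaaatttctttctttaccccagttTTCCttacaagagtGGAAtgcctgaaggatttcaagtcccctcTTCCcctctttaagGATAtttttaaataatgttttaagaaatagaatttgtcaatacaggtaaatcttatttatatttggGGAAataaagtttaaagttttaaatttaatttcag
Tal1 -4 site: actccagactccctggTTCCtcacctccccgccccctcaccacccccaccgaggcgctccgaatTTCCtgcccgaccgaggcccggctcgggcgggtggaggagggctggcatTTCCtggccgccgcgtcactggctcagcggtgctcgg
Tal1 +40 site: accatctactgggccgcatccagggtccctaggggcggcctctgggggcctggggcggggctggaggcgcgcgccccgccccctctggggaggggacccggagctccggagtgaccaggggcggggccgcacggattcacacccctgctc
Erg intron site: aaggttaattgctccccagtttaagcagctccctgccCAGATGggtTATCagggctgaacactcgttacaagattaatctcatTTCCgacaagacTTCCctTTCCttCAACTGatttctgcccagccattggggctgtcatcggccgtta

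Over 250 bases, CANNTG stood in 66.2%, GATA in 53.6% and GGAA in 93.5% of 32851 RefSeq promoters. The Tal1 promoter held 4 GATA and 4 GGAA and no CANNTG, whereas the Lyl1 promoter held 1 CANNTG, 5 GGAA and no GATA. At the open Erg start there were 2 CANNTG, 3 GATA and 2 GGAA, and at the closed one no CANNTG, 1 GATA and 4 GGAA. The 250 bases before the gene start of Erg held none of these 3 motifs. A second matched Tal1 promoter held 3 GGAA and no GATA or CANNTG. The 3 matched Ldb1 promoters differed in CG dinucleotides, with 40 in 250 bases (76% G and C) at the gene start, 22 at the internal start and 4 at another, against a median of 6 over all promoters. Etv6 had 16. Among the open sites printed, the Erg intron site held all of the motifs printed in capitals (2 CANNTG, 1 GATA, 3 GGAA), the Tal1 -4 site 3 GGAA, and the 150 bases at the Tal1 +40 summit none. A missing match says only that these letters are not in that window.

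The gene body levels ranged from 1.03 to 22.6, and all 7 genes lay above the median of all genes (0.835). Lyl1 (ENSMUSG00000034041, chromosome 8, 84701457 to 84704715) was highest at 22.6 (21.9 to 23.3), at percentile 99.9 of all genes. Next came Ldb1 (chromosome 19, 46031570 to 46045214) at 7.01 (6.80 to 7.23) and Tal1 (chromosome 4, 115056426 to 115071755) at 4.66 (4.50 to 4.83). Lmo2 (chromosome 2, 103957986 to 103981878) had 4.24 (4.11 to 4.37), just under the 90th percentile of 4.29. These 4 genes thus stood above or just under that percentile, in the order Lyl1, Ldb1, Tal1, Lmo2, and no neighbouring intervals overlapped. The 3 long ETS genes were lower, with Etv6 (chromosome 6, 134035700 to 134270158) at 1.62 (1.60 to 1.65), Fli1 (chromosome 9, 32422204 to 32542861) at 1.28 (1.24 to 1.31) and Erg (chromosome 16, 95359169 to 95586593) at 1.03 (1.01 to 1.06), or percentiles 68.3, 61.6 and 55.9. Levels are per kb, and the intervals of these 3 genes span 122.7 to 236.5 kb, against 5.26 to 25.9 kb for the other 4. How far length sets this order was not tested. Of Lyl1's interval of 5.26 kb, 4840 bp are shared with Nfix on the opposite strand and 352 bp with Trmt1, so its fragments cannot be assigned to Lyl1 alone. Lmo2 shares 14936 bp with 4931422A03Rik and Ldb1 2329 bp with Pprc1, while Tal1, Fli1, Erg and Etv6 share none.

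At the promoter, 1 kb on each side of the gene start, Lyl1 again led with 37.7 (36.3 to 39.1). Etv6 followed at 27.2 (26.02 to 28.36), and these 2 genes lay above the 90th percentile of promoters (24.6). Tal1 had 22.0 (21.0 to 23.1) and Ldb1 21.4 (20.4 to 22.4), whose intervals overlapped. Fli1 at 5.54 (5.03 to 6.09) and Erg at 4.62 (4.15 to 5.13) stood near the median of all promoters, 5.12. Lmo2 was lowest at 1.49 (1.23 to 1.79), from 115 fragments, at percentile 36.3. Between gene body and promoter Lyl1 and Tal1 kept their ranks among the 7 genes, while Etv6 stood higher in the order of promoters and Lmo2 fell to the last place.

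**Figure D1:**
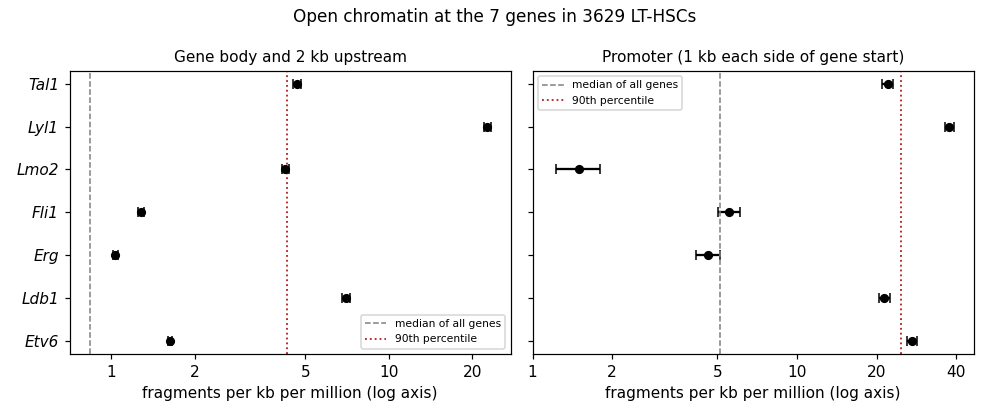
Level of open chromatin at each gene in fragments per kb, scaled to 1000000 nuclear fragments (log axes), over the gene body with 2 kb upstream and over the promoter; points are sums over 3629 cells, bars exact 95% Poisson intervals (counting error only), and lines the median and 90th percentile of 21728 genes. Lyl1 is highest on both, and Lmo2 falls from near the 90th percentile of gene bodies to below the median of promoters.

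Most of these genes have several annotated starts, and the first one was not always the open one. Openness of a start is given as insertions (fragment ends) within 250 bp of it, relative to the genome mean. At Lmo2 the gene start had 85 insertions, 5.90 times the mean, while the starts 11.5 kb and 12.1 kb further in had 1038 (73.3 times) and 998 (57.4 times). At Erg the gene start had 126 insertions (8.90 times), the starts at 56.2 kb and 62 kb had 4 and 5, below the genome mean, and the start at 127 kb had 806 (47.2 times). An open site 1400 bp wide, with 687 insertions, had its highest point 0.967 kb into Erg, beyond the window at the gene start. At Fli1 the gene start had 185 (13.1 times) and the start at 1.27 kb had 538 (38.0 times). Thus Lmo2, Erg and Fli1 were several times more open at an internal start than at the gene start, and the sequences above show an open and a closed start of Erg. Tal1 was open at its gene start (771 insertions, 54.5 times) and at 1.01 kb (629, 25.5 times), and Ldb1 at both of its starts (1735 insertions and 76.7 times at the gene start, 1720 and 94.98 times at 5.59 kb). Lyl1, with 3283 insertions and 232 times the mean, and Etv6, with 2198 and 101 times, each had 1 group of starts. When the most covered start was taken for every gene, a choice made after the values were seen, promoter levels of Lmo2, Fli1 and Erg were 19.7, 9.37 and 9.19, at percentiles 81.8, 59.1 and 58.5.

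**Figure D2:**
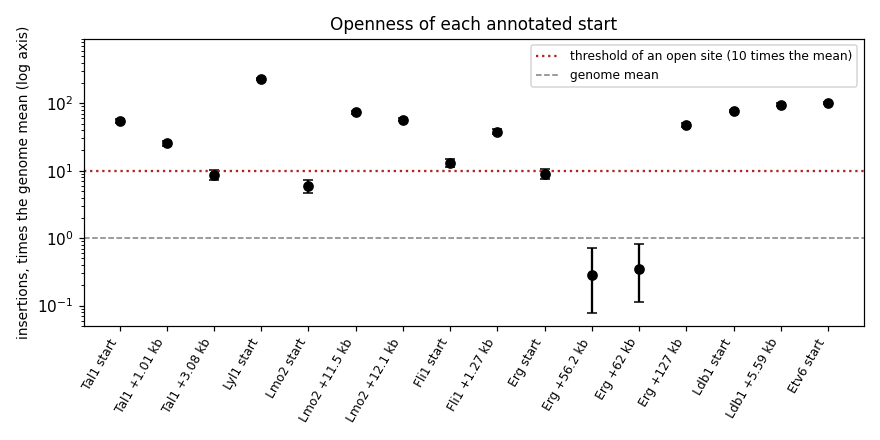
Insertions around each annotated start, as multiples of the genome mean (log axis), with exact 95% Poisson intervals and labels of the distance from the gene start in kb. Lmo2 and Erg are under the dotted threshold at the gene start and above it at 11.5 kb and 127 kb. That threshold was set for 150 bp and the points are means over wider windows, so a point under it can still touch an open site.

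Fragments under 100 bp, which come from DNA free of nucleosomes, made up 42.5% (40.7 to 44.3) of fragments at the Lyl1 promoter, 33.3% at Tal1 and 33.0% at Etv6, against 33.6% over all promoters. Ldb1 had 26.8%. At the gene starts of Erg, Fli1 and Lmo2 the share was lower, at 17.7% (13.9 to 22.1), 14.0% (10.9 to 17.7) and 12.2% (6.82 to 19.6). The genes with weakly open gene starts were therefore also those with the fewest short fragments there.

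Single cells gave a sparse view of these promoters. A promoter fragment was found in 51.5% of cells at Lyl1, 40.3% at Etv6, 34.8% at Tal1, 33.4% at Ldb1, 10.2% at Fli1, 8.74% at Erg and 3.00% at Lmo2. Of 3629 cells, 392 (10.8%) had a fragment at none of the 7 promoters, 1219 (33.6%) at 2 of them and 1 cell at all 7. The mean number of promoters with a fragment rose with depth from 1.43 in the shallowest 25% of cells to 2.19 in the deepest 25%. Thinned to 6000 fragments, 3385 cells had a mean of 1.204, and Lyl1 was found in 35.2%. Across cells and given depth, rank correlations between gene bodies of pairs of members lay between -0.02 and 0.04 (21 pairs, 3629 cells, counts of the same library), so no pair of genes visibly opened together in these sparse counts.

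Open sites were called where insertions within 150 bp reached 10 times the genome mean (43 insertions), which gave 65231 sites with a median width of 400 bp. Within 50 kb of the gene start there were 24 sites at Fli1, 17 at Tal1, 15 at Lyl1, 11 each at Lmo2 and Ldb1, 10 at Etv6 and 5 at Erg, against a median of 5 for all genes. The order turned on the threshold: at 20 times the mean Lyl1 had 21 sites, Lmo2 14, Tal1 13, Fli1 9, Ldb1 8, Etv6 4 and Erg 3, against a median of 3. Of the 93 sites at 10 times the mean, 40 lay in introns, 30 between genes, 20 at promoters and 3 in exons, and 9 of the promoter sites belonged to other genes, 4 of them near Lyl1 and 4 near Ldb1. Gene bodies reached beyond 50 kb at 3 genes and added 18 sites at Erg, 14 at Etv6 and 4 at Fli1, which makes 129 in all. Around the summits of these 129 sites the motifs were about as frequent as in all sites: GATA in 31.8% against 31.6%, CANNTG in 45.7% against 52.0%, GGAA in 87.6% against 84.4% and the RUNX letters TGNGGT in 31.0% against 33.7%. The first 3 of these motifs stood together in 18 sites (14.0%, against 14.6%).

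**Figure D3:**
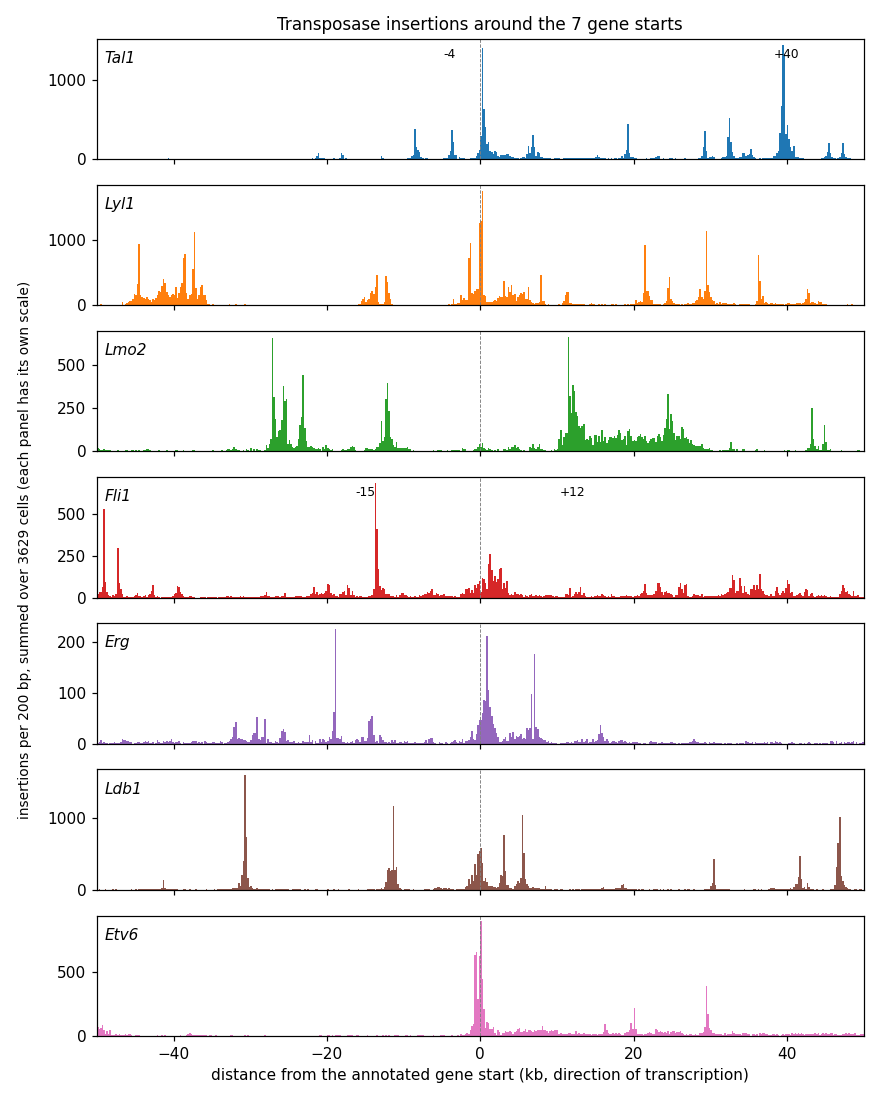
Insertions per 200 bp, summed over 3629 cells, against distance from the gene start in kb in the direction of transcription, with a separate scale for each gene and numbers at distances by which enhancers are commonly named. At Tal1 the site near +40 is as high as the promoter, and at Lmo2 the gene start is low and a broad block opens from about 11 kb.

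Tal1 had its most covered site not at the promoter but 39.6 kb downstream, between genes and nearest to Pdzk1ip1. That site, 2500 bp wide at the distance by which the +40 enhancer is named, had 5393 insertions, a summit of 1282 (percentile 96.7 of all sites) and a fragment in 49.9% of cells. The promoter site (2600 bp) had 3812 insertions, a summit of 1275 and a fragment in 38.8% of cells. The -4 site, a known enhancer of Tal1 in blood and endothelium, was smaller, with 807 insertions and a fragment in 10.8% of cells. The third most covered site near Tal1, at 32.5 kb, is the promoter of Pdzk1ip1 (1117 insertions).

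Lyl1 lay in the middle of an open stretch of 9250 bp with 12013 insertions, and 76.5% of cells had a fragment in it. A stretch 37.3 kb upstream, nearest to Ier2, was 10300 bp wide and had about as many, 12033. The third, at 29.5 kb, lies in an intron of Nfix (2822 insertions). At Lmo2 the site with the most insertions (3846 over 4350 bp, 38.3% of cells) covered the internal starts, and another 27.1 kb upstream had 2700. Near the distance of -75 kb by which an enhancer of Lmo2 is named, measured from any start, 4 small sites had 87 to 316 insertions.

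Fli1 had 1697 insertions in a broad site at its internal start, 643 in a separate one at its gene start and 1357 in a narrow one (900 bp) 13.6 kb upstream of the gene start and 14.9 kb upstream of the second start, near the -15 distance of a known Fli1 enhancer. The narrow site had the higher summit, 589 against 238. No site lay within 2 kb of +12. Near Erg the most covered site (1684 insertions, 19.7% of cells) was in an intron 147 kb into the gene, the second (1297) at the internal start at 127 kb, and the third (1096) in an intron at 134 kb. The first is 85.2 kb from the start at 62 kb, near the +85 distance of a known Erg enhancer, but with 4 starts and 3 named distances the windows searched covered 48 kb, and 12 sites fell in them. Etv6 had its most covered site at the promoter (3000 bp, 4365 insertions, 42.0% of cells), with 1710 in an intron at 151 kb and 651 at 29.5 kb. The most covered site of Ldb1 (3740 insertions) was at its gene start, and the next, at the promoters of Nolc1 and Pprc1, had 3279 and 3081.

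Of the 2 heptad genes outside the members, Gata2, a GATA factor of stem cells, had a gene body level of 8.61 (percentile 97.3), higher than Tal1, and Runx1 had 1.38 (63.98), in the range of the ETS members. Among 18 genes of complex partners 2 lay above the 90th percentile, against 3 of the 7 members. The highest partners were Gata2 and Ssbp4, which binds Ldb1, at 6.84, and the lowest were the E protein genes Tcf12 at 0.455 and Tcf4 at 0.593. Low gene body levels did not extend to their promoters, at 18.6 (percentile 81.7) for Tcf12 and 7.67 (57.8) for Tcf4. Tcf3, an E protein gene named after its value was seen, had a gene body level of 3.355 (percentile 85.7). Of 18 paralogs 1 lay above it. The ETS repressor gene Erf had 7.57 and Fev 3.08, while Lmo3 (0.109) and Ldb2 (0.122) were lowest. Thus Ldb1 at 7.01 stood far above Ldb2. Lmo2 at 4.24 stood above Lmo3 and Lmo1 (0.795) but level with Lmo4 (4.22), and the last 2 genes are named after their values were seen. At the promoter, Lmo2 (1.49) lay below Lmo1 (4.09) and Lmo4 (22.5), while Ldb1 (21.4) lay above Ldb2 (3.375). Ldb2 and Lmo3 are long genes, and how far length sets these gene body levels was not tested.

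To ask whether openness followed surface phenotype, cells high and low in each of 12 antibodies were compared, as near to the highest and lowest 25% as tied counts allowed. A gene was counted as past 1.2-fold if the ratio of scaled fragments passed it in either direction, with at least 200 fragments over both groups. Past 1.2-fold were 0 of 7 members with CD61 (integrin beta 3, platelet side; 6.81% of all genes), CD274 (PD-L1, platelet side; 8.13%), CD357 (GITR, multi-lineage side; 4.15%) and CD27 (multi-lineage side; 3.79%). It was also 0 of 7 with CD68 (12%), CD106 (3.24%), CD163 (37.1%), CD183 (15%), CD201 (3.01%), P2X7R (2.47%) and MERTK (5.52%). With CD206 it was 1 of 7 (33.9%). In each of the 12 the share of members was below that of all genes tested, so the counts are no result about the members. The intervals bound the sizes: with CD357 every member lay between -0.05 and 0.02 in log2 ratio with intervals from -0.18 to 0.13, inside 1.2-fold.

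Between CD61-high (779) and CD61-low (727) cells, the intervals of Erg, Etv6 and Lyl1 left out 0, Erg the other way from Etv6 and Lyl1. Log2 ratios of all genes had a standard deviation of 0.14 here, so sizes like these were common. How many of all genes had an interval without 0 was not counted. Erg had a level of 1.08 in high and 0.997 in low cells, a log2 ratio of 0.11 (0.02 to 0.20). Etv6 had 1.57 and 1.70, or -0.11 (-0.19 to -0.04), and Lyl1 21.2 and 23.4, or -0.15 (-0.28 to -0.02). High cells also had more tags in all, with a median of 36 against 22 for CD61 and 46 against 17 for CD274, and both antibodies split the same cells. Over 4 bins of rising CD61 count, Erg stood at 0.997, 1.002, 1.07 and 1.08, Etv6 at 1.70, 1.64, 1.59 and 1.57, and Lyl1 at 23.4, 23.0, 22.7 and 21.2. The first and last bins are the low and high groups themselves, so only the middle bins add to the ratios above. The middle bins lay between the ends for each of these genes, although neighbouring intervals overlapped. Tal1 (-0.03), Lmo2 (-0.10), Fli1 (0.03) and Ldb1 (-0.07) had intervals that included 0. Excess overlaps were found in 13.6% of CD61-high and 5.23% of CD61-low cells, and without those cells Erg was at 0.11 and Etv6 at -0.12, while Lyl1 was at -0.065. Erg was at 0.0011 in the promoter and -0.075 in open sites within 50 kb, regions that leave out its open internal start and 18 of its sites. The 3 most covered of the sites left out were at -0.12 (147 kb), -0.054 (the internal start at 127 kb) and -0.046 (134 kb), with intervals that included 0. The less covered Erg sites near named enhancer distances had under 200 fragments each. They lay between -0.13 and 1.05, mostly above 0, and their intervals also included 0. Among the 363 cells with at least 50 tags Lyl1 turned to 0.16.

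Between CD274-high (937) and CD274-low (877) cells, log2 ratios of all genes had a standard deviation of 0.15. How many of them had an interval without 0 was not counted. Ldb1 was at 7.16 and 6.32, or 0.18 (0.05 to 0.31). Etv6 was at 1.58 and 1.71, or -0.11 (-0.18 to -0.05), and Lyl1 at 21.5 and 23.8, or -0.14 (-0.26 to -0.03). In 4 bins of CD274 count, of which the first and last are the low and high groups themselves, Ldb1 stood at 6.32, 7.17, 7.37 and 7.16. The lowest bin was below the other 3, although its interval (5.92 to 6.74) touched that of the next (6.74 to 7.62). Tal1, Lmo2, Fli1 and Erg lay between -0.059 and 0.00069. Excess overlaps were found in 13.0% of high and 6.39% of low cells, and without those cells Ldb1 was at 0.18, Etv6 at -0.085 and Lyl1 at -0.12. With thinned cells Ldb1 was at 0.080, and in open sites within 50 kb Ldb1 was at 0.059 and Lyl1 at -0.0080. With at least 50 tags the signs turned, to -0.20 for Ldb1, 0.21 for Etv6 and 0.070 for Lyl1. For CD27, with 825 cells of 2 or more tags against 1578 with none, Tal1 was at 0.12 (-0.01 to 0.25), the largest of the 7, and the others lay between -0.06 and 0.01. Complex partners past 1.2-fold were 0 of 18 with CD61, CD357 and CD27 and 1 of 18 with CD274. Of the 16 paralogs with enough fragments it was 0 with CD61 and CD27, 1 with CD274 (8.13% of all genes) and 2 with CD357 (4.15%).

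**Figure D4:**
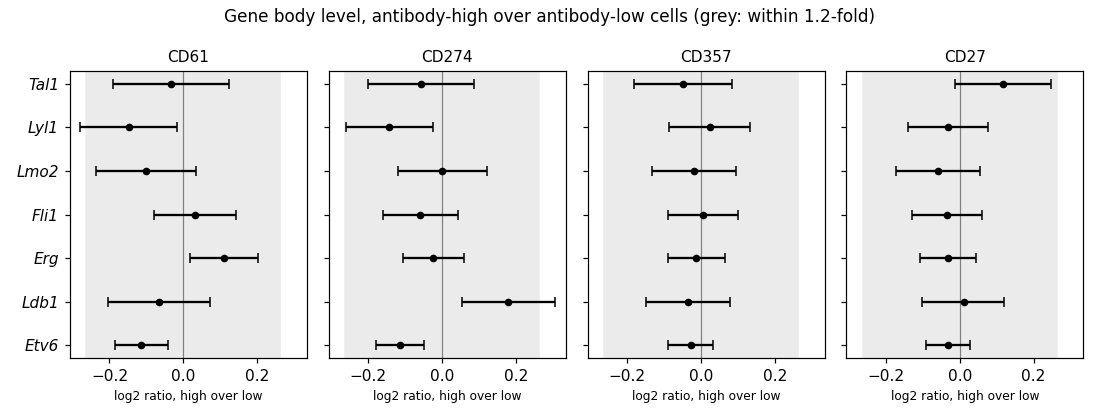
Log2 ratio of gene body level between cells high and low in CD61, CD274, CD357 and CD27 for each gene, with exact 95% conditional binomial intervals for counting error only. No point leaves the grey band of 1.2-fold, and the intervals of Lyl1 and Etv6 lie below 0 with both CD61 and CD274, which split the same cells.

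With CD206, a macrophage receptor tagged in 82 cells, Lmo2 was at 3.31 in tagged and 4.26 in untagged cells, or -0.36 on the log2 scale (-0.72 to -0.034), with 74 and 4150 fragments. It was at -0.18 with thinned cells, -0.060 in promoters, -0.058 in open sites and -0.078 with at least 50 tags. Centred log ratios of tags set 910 cells against 908, mostly without a CD206 tag, and there it was at 0.068. In the gates of the study's markers, PLT-gated cells (342, above the median count of CD61 and CD274 and not of CD357 and CD27) were set against MUL-gated cells (61, the opposite). Past 1.2-fold were 2 of 7 members, where 29% of all genes were, so this count is near the share of all genes and is no result about the members. Fli1 had 1.32 and 1.03, or 0.34 (0.0045 to 0.72), with 572 and 76 fragments, and Lyl1 22.0 and 27.6, or -0.33 (-0.66 to 0.03). Tal1, Lmo2, Erg, Ldb1 and Etv6 lay between -0.20 and 0.13. The gates were small and changed in size with the cells used: without the deepest 5% of cells they held 256 and 89 cells, and 0 members were past 1.2-fold, with Fli1 at 0.26 and Lyl1 at -0.12.

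Single open sites passed 1.2-fold more often than gene bodies, from fewer fragments, and this held for all sites against all genes too. The named sites were the 3 most covered of each gene and those near named enhancer distances. Past 1.2-fold were 1 of 20 named sites with enough fragments for CD61 (11.8% of all sites), 4 of 20 for CD274 (16.2%), 1 of 24 for CD357 (9.98%) and 3 of 24 for CD27 (9.61%). These counts are near or below the shares of all sites, so they are no result about the named sites. With CD274, the site at the internal start of Fli1 had 207 fragments in high and 245 in low cells, a log2 ratio of -0.39 (-0.66 to -0.11), whereas the site 13.6 kb upstream was at -0.01 (-0.31 to 0.29). The Pdzk1ip1 promoter 32.5 kb from Tal1 had 177 and 101, or 0.66 (0.30 to 1.03), in a comparison where 1953 of all sites passed 1.2-fold upward and 668 downward. The Tal1 +40 site had 745 and 634, or 0.09 (-0.07 to 0.24). In Erg the intron site at 147 kb was at -0.27 (-0.53 to -0.01) and that at 134 kb at 0.30 (-0.03 to 0.64). Without cells with excess overlaps the 4 sites were at -0.40 for Fli1, 0.59 for the Pdzk1ip1 promoter, -0.21 for Erg at 147 kb and 0.46 for Erg at 134 kb. The Pdzk1ip1 promoter was also the 1 site past 1.2-fold with CD61, at 0.35 (-0.02 to 0.72), and it was at 0.26 (-0.02 to 0.55) with CD27. With centred log ratios it was within 1.2-fold for both, at 0.24 for CD61 and 0.26 for CD27. With CD61 the Tal1 +40 site was at 0.18 (0.01 to 0.35), from 660 and 505 fragments, and the Tal1 promoter at 0.08 (-0.12 to 0.28). With CD27, the Etv6 intron site at 29.5 kb was at 0.38 (0.0082 to 0.75), from 106 and 146 fragments, and at 0.23 (-0.17 to 0.64) with centred log ratios of tags, within 1.2-fold.

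**Figure D5:**
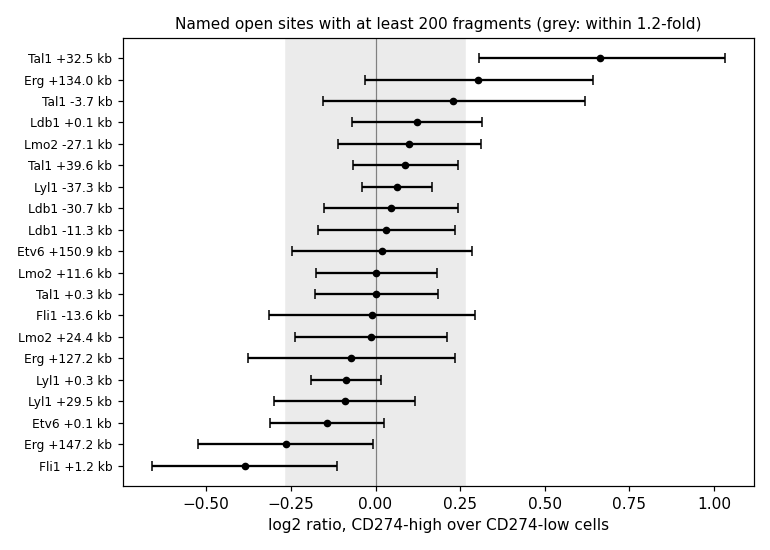
Log2 ratio between CD274-high and CD274-low cells at the 20 named open sites with at least 200 fragments, labelled by gene and distance from its start in kb, with exact 95% conditional binomial intervals and a grey band within 1.2-fold. The Pdzk1ip1 promoter near Tal1 is highest at 0.66, and the site at the internal start of Fli1 lowest at -0.39.

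Summed over the 7 genes, log2 ratios over the 12 antibodies lay between -0.074 for CD206 and 0.018 for CD163. Only the intervals of CD61 (-0.042, -0.083 to -0.0011) and CD274 (-0.051, -0.088 to -0.015) left out 0. Etv6, at -0.11 with both, gave 3230 of the 10293 fragments of CD61-high and 3871 of the 12268 of CD274-high cells. The genes whose ratios over the 12 antibodies were most like this sum were Mdga1 (Pearson r = 0.934), Supt6 (0.932), Dido1 (0.923), Atg16l1 (0.909) and Lancl3 (0.906), out of 11142 genes, of which 5% were above 0.675. The 12 points share cells, and those of the rarest tags spread most.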

How the data were processed

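The members and lists were chosen with earlier results of these data known. Per the file headers, the authors processed the ATAC library by cellranger-arc 2.0.2 against mm10, and deposited counts with no normalization: 1 line per fragment, totals per barcode, and antibody tag counts made with CITE-seq-Count (no version given in the sources used here). Duplicate read pairs were collapsed and fragment ends shifted for the transposase by that pipeline. The RNA matrix was not used here. One site near Tal1 is not reported here.

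Genes were the protein-coding genes of GENCODE M21. Fragments overlapping an interval were divided by its length and by the nuclear fragments of the cells. Before each log2 ratio 0.5 was added to the counts. Sites joined 50 bp bins over gaps of up to 150 bp and were at least 150 bp wide. Sites were called on all kept cells, which hold both groups of each comparison. Cells with excess overlaps were found from autosomal positions under at least 3 fragments no longer than 900 bp, against a Poisson expectation (adjusted value below 0.01); doublets were kept in the main values. Genes named outside the members were the 2 highest and 2 lowest of each list by gene body level, and likeness used genes with at least 1000 fragments. The ratio script was tested on simulated counts. Scripts ran in Python 3.11.15 (pandas 2.3.3, numba 0.67.0, scipy 1.17.1, pysam 0.24.0, numpy 2.4.6). Intervals were Poisson for levels, binomial for shares and conditional binomial for ratios. Alternatives were other cell filters, thinning to 6000 fragments (244 shallower cells left out), other regions, scaling by promoter fragments, centred log ratios of tags, and site thresholds of 5 and 20 times the mean.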

Additional observations from a re-analysis of the deposited data

Results flagged for a closer look

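Fragments outside the kept cells were not used in any comparison, and 3 sums of them were above the limit that a count of 0 allows (3 counts). Barcodes not called as cells held 2859 fragments in the gene bodies and 580 in the promoters of the 7 genes. There the gene body level was 20.01 for Lyl1, 5.65 for Ldb1, 3.74 for Tal1, 3.12 for Lmo2, 1.38 for Etv6, 1.19 for Fli1 and 0.9204 for Erg, so kept cells were between 1.07 (Fli1) and 1.36 (Lmo2) times as high. Summed over all genes, uncalled barcodes had 0.914 times the gene body and 0.814 times the promoter level of kept cells. Cells removed for having under 10 antibody tags held 1309 gene body fragments. Against the kept cells, Ldb1 was lower there at 5.27 (4.22 to 6.49) and Fli1 higher at 1.54 (1.34 to 1.77), while the intervals of the other 5 genes held the level of the kept cells.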

How the results depend on the processing

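No paired analysis was possible because 1 pool with 1 library per assay holds no replicates. Gene body levels of 3 members were above the 90th percentile, and 4 were with thinned cells or without the 2 kb upstream, which brought in Lmo2. The median gene body level of the members (4.24) moved to 4.40 with thinned cells and 4.53 without the 2 kb upstream. With promoters of 500 bp on each side, 1 member in place of 2 was above the 90th percentile and the median promoter level moved from 21.4 to 32.6. A window of 100 kb raised the 93 sites to 146, and the median of all genes from 5 to 9.

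Members past 1.2-fold changed as follows, and the cause was not tested. With at least 50 tags they were 2 for CD61, 1 each for CD68, CD183, CD201 and CD357, 3 for CD163, 4 for CD206 and 0 for the gates (1 of 7 members had 200 fragments, and Fli1 was at 0.58 and Ldb1 at -0.53 below that minimum), where between 14.6% and 67.8% of all genes passed for an antibody. For the gates they were 0 with no minimum of tags, without the deepest 5% of cells, with centred log ratios and in open sites only, and 1 without cells with excess overlaps or with thinned cells. For CD206 they were 2 without the deepest cells, 3 in promoters, and 0 with centred log ratios, where Lmo2 turned to 0.068, and 0 in open sites. With thinned cells the 1 for CD206 was Ldb1 at 0.36, not Lmo2. CD163 had 1 with thinned cells and 3 in promoters, CD68 2 and CD183 1 in promoters, and CD183 1 in open sites. Of all genes, up to 47.1% passed for an antibody with thinned cells, 46.4% in promoters, 39.1% without the deepest cells and 25.1% in open sites. With centred log ratios it was up to 7.26%, and for the gates 29% of all genes passed in the main values. Named sites past 1.2-fold, in alternatives chosen after seeing the data, were 2 for CD61 without cells with excess overlaps and 1 for CD27 with centred log ratios. The share of all sites was computed only for the main values, at 11.8% for CD61 and 9.61% for CD27. Of the log2 ratios of single genes and sites under alternatives, 748 stayed within their counting interval, 97 left it, and 1 (Lmo2 with CD206) was past 1.2-fold in the main values and changed sign. Of 84 ratios of members and antibodies, 50 kept their sign with at least 50 tags or in open sites only, 51 with centred log ratios and 54 in promoters, and 67 to 79 under the other alternatives. The number of cells limits the gates and the rare tags, since 61 MUL-gated and 71 CD163-tagged cells give wide intervals.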
